A study of Mus musculus with 9 samples.

Results

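The genes that make, relay and break down cyclic AMP (cAMP) were followed in TtT/GF, a line of folliculostellate cells from mouse pituitary, treated with the adenosine receptor agonist NECA (5'-N-ethylcarboxamidoadenosine). They were picked by a rule on gene symbols, with earlier results of these data known. The symbols covered G protein alpha subunits (Gnas, Gnai1 to Gnai3 and Gnaq), beta (Gnb) and gamma (Gng) subunits, adenylyl cyclases (Adcy) and phosphodiesterases (Pde). They also covered catalytic (Prkaca, Prkacb) and regulatory (Prkar) subunits of protein kinase A (PKA), and A-kinase anchoring proteins (Akap). The rule found 49 of the 8251 genes that a probe set on the array names alone, measured by 69 of 12422 probe sets.

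Each of 9 samples, taken as separate cultures, gave 1 Affymetrix MG_U74A v2 array. By their labels 3 cultures were untreated, 3 received NECA at 10 µM for 30 min and the remaining 3 received the same dose for 120 min, all grown with 2% heat-inactivated fetal bovine serum. The labels name neither a vehicle nor an untreated group for each time, so an effect of NECA and one of handling or time in culture cannot be told apart. All values come from 1 cell line.

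Adenosine receptors are coupled to heterotrimeric G proteins. The Gs alpha subunit stimulates adenylyl cyclase, which makes cAMP from ATP, and the Gi alpha subunits inhibit it. cAMP releases the catalytic subunits of PKA from its regulatory subunits, anchoring proteins hold the kinase near its targets, and phosphodiesterases hydrolyse cAMP. PKA phosphorylates CREB, which binds cAMP response elements in gene promoters, and some genes of the pathway are themselves known CREB targets in other cells. Folliculostellate cells are the non-hormonal, glia-like cells of the anterior pituitary.

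The RNA of most of this machinery did not pass the test at either time. At 120 min the RNA of Pde8a, a cAMP-specific phosphodiesterase of high affinity, rose 1.54-fold over untreated cells. That of Pde1b, a calmodulin-dependent phosphodiesterase that hydrolyses both cAMP and cGMP, fell 1.53-fold. That is 1 of 49 tested member probe sets in each direction, near the shares over all tested probe sets, 1.83% higher and 1.54% lower. The Pde8a result held in 12 of 18 alternative settings of the analysis and the Pde1b result in 8. At 30 min no member passed. Every estimated change of a tested member was smaller than 2-fold in all 3 comparisons.

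Sequence near an annotated start is shown for Pde8a and Pde1b because they are the members called at 120 min, and for Prkar1a because it alone held the full cAMP response element among the members matched. Sequences are from RefSeq (assembly GRCm38.p6), written 5′ to 3′ on the plus strand, on which all 3 genes lie. Capitals mark matches to TGACGTCA, the palindromic response element, or to TGACG, its shorter form. The Pde8a and Pde1b sequences, chr7:81213015-81213264 and chr15:103502784-103503033, are the 250 bases before an annotated start. The Prkar1a stretch, chr11:109650889-109650918, is the 30 bases around the element. The element begins 49 bases before 1 annotated start and 38 bases after another, within the gene, which is annotated from chr11:109649023.

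Pde8a: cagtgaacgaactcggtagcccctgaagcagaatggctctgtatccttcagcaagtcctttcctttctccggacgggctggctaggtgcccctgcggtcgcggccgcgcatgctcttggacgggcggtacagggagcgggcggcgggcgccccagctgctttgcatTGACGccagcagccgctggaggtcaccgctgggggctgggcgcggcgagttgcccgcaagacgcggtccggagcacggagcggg
Pde1b: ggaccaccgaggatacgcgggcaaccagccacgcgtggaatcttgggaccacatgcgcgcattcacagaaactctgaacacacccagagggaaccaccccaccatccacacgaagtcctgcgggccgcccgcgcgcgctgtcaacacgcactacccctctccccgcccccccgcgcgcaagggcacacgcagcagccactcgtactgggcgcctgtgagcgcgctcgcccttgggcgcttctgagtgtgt
Prkar1a: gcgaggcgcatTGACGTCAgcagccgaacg

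Windows from 250 bases before to 50 after each annotated start were searched on both strands, and 37 of the 49 member genes were matched to 72 such windows. TGACGTCA was found in 2 of the 72 (2.78%), both Prkar1a windows over the same site, against 1.79% of all 32851 windows of this length. TGACG, which TGACGTCA also contains on both strands, was found in 20 of the 72 (27.8%) from 16 genes, against 20.8% of all windows. Pde8a had 1 match to TGACG, 84 bases before its start, and none of the 3 Pde1b windows held a match. A match is a description of the letters only.

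The values are MAS5 signals, a background-corrected intensity on a linear scale that does not allow levels of different probe sets to be compared. Of the 69 member probe sets, 49 for 37 genes were tested, having a signal above 20.5 on at least 3 of 9 arrays. No tested member cleared that filter in 1 group only, and 37 cleared it on all 9 arrays. The 20 untested probe sets never exceeded a signal of 26.8. No probe set was tested for Gnai1, Adcy2, Adcy8, Akap4, Akap7, Akap17b, Gng4, Pde1a, Pde1c, Pde6b, Pde6g and Pde9a, whose changes are therefore not given. Changes are differences of log2(signal + 7.93) with standard error (SE), which understate the change of low signals. A probe set is called when limma's adjusted p, taken over all 7851 tested probe sets, is under 0.05.

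Within groups, log signals over all arrays of a group correlated at 0.974 to 0.978 in untreated cells, 0.947 to 0.969 at 30 min and 0.967 to 0.972 at 120 min. Replicate 3 of the 30 min group had the lowest signal of the 9 arrays for 15 of the 49 tested members and the highest for 13. Its Gapdh 3' to 5' signal ratio was the lowest, at 0.879. This ratio, a measure of RNA integrity, is higher in degraded RNA. It was 0.964 to 1.02 in untreated cells, 0.879 to 0.955 at 30 min and 0.925 to 0.98 at 120 min. The untreated and 30 min ranges did not overlap, and the 120 min range overlapped each only in part. A fit with this ratio as a covariate therefore cannot fully tell RNA quality and group apart. Of 11 folliculostellate markers, 8 were tested, and none was called at 30 or 120 min. Gja1, the gap junction protein connexin 43, gave a signal of 876 to 1839 (100064_f_at) and S100b, the classical marker, 21.2 to 65.4, while Fgf2 stayed at or below 5.78. Vim (9.01 to 32.5), Sox2 (8.39 to 17.8) and Gfap 94143_at (2.76 to 13.4) were low and untested. Gfap 94144_g_at read 8.62 to 42.6. On Gja1 100064_f_at all 120 min arrays exceeded all untreated ones (0.61 ± 0.15, adjusted p 0.0527, limma), with overlap on 100065_r_at (0.52 ± 0.27). The 120 min arrays also lay above untreated ones for Cd9 and Sox2, and below them for S100b and Anxa1 161703_f_at. Signals summed over all 10 probe sets of pituitary hormone cell markers were 365 to 402 in untreated cells, 297 to 355 at 30 min and 253 to 371 at 120 min. Over 15 probe sets of macrophage and leukocyte markers they were 942 to 1006, 1006 to 1147 and 1020 to 1235, carried by Cd68 and Cd14, while Ptprc, Adgre1 and Itgam never exceeded 8.51. Over 8 probe sets of endothelial markers they were 51.7 to 66.5, 52.7 to 57.0 and 39.2 to 60.1. Only 6, 5 and 1 probe sets of these 3 lists, in this order, were tested, and none was called at 30 or 120 min. Arrays at 120 min lay above all untreated ones for Cd14 (0.53 ± 0.14, adjusted p 0.0658, limma) and below them for Lhb (-0.65 ± 0.27, adjusted p 0.269). Of the untested sets, Cdh5 lay higher at 120 min (7.46 to 17.4, against 2.57 to 3.44 untreated) and Tie1 99936_at lower. The part of RNA integrity or of other cell types in the results was not tested beyond the fits named beside each result.

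At 30 min, 0 of 49 tested members were called higher and 0 lower, where limma called 0.357% of all tested probe sets higher and 0% lower. At an unadjusted p under 0.05 there was 1 member higher, Pde6d, and 2 lower, Gnb1 (97458_at) and Pde6a, or 2.04% and 4.08% against 3.87% and 4.7% of all tested. The 3 treated arrays lay entirely above the 3 untreated ones for 1 member (2.04%, against 6.11% of all) and entirely below them for 6 (12.2%, against 8.65%). The median member change was -0.03, beside -0.04 over all tested probe sets. For 47 of 49 members (95.9%) the unadjusted 95% interval of the change lay within 2-fold either way, as it did for 90.1% of all tested; the exceptions were Adcy3 and Gnb3.

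At 120 min, 1 member was called higher, Pde8a, and 1 lower, Pde1b. That is 2.04% in each direction, near the 1.83% of all tested probe sets called higher and the 1.54% called lower. At an unadjusted p under 0.05 there were 4 members higher (8.16%, against 6.42% of all) and 3 lower (6.12%, against 8.93%). Non-overlapping arrays were seen for 6 members higher (12.2%, against 12.3% of all) and 3 lower (6.12%, against 13%). The median change was -0.06 among members and -0.04 over all. The interval stayed within 2-fold for 44 of 49 members (89.8%, against 86.8% of all), and reached it for Akap2, Akap8 (95001_at), Akap9, Adcy3 and Gnb3.

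Between the NECA groups, 120 min against 30 min, 0 members were called higher and 1 was called lower, Pde1b. At an unadjusted p under 0.05 in limma 5 members were higher (10.2%, against 6.02% of all) and 2 lower (4.08%, against 6.97%). For adjusted calls the background was 1.35% of all tested probe sets called higher and 1.62% lower. Arrays did not overlap for 5 members higher (10.2%, against 7.44% of all) and 4 lower (8.16%, against 9.07%). The 3 comparisons share arrays, so their counts are not independent.

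**Figure D1:**
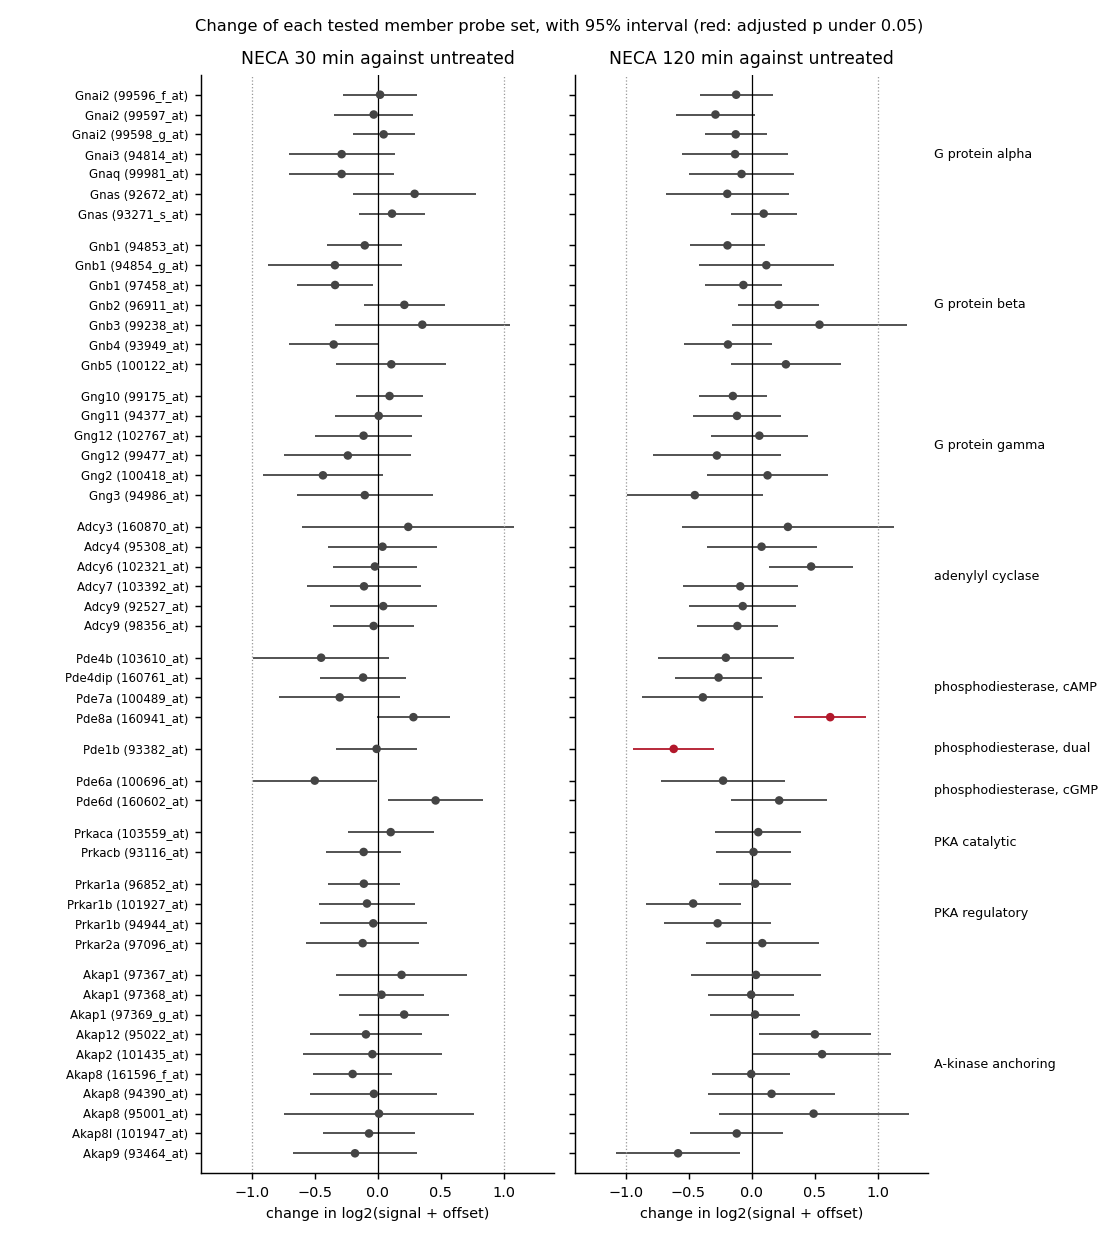
Change of each of the 49 tested member probe sets in log2(signal + 7.93) with its unadjusted 95% interval, by role, at 30 min (left) and 120 min (right) against untreated cells; dotted lines mark 2-fold and red marks an adjusted p under 0.05. No point is red at 30 min, and at 120 min Pde8a (0.62) and Pde1b (-0.62) are.

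No member changed by 0.75 or more on the log2 scale at either time, a size that few probe sets of the array reached. At 120 min 12.2% of members and 11.5% of all tested probe sets differed by at least 0.5 on the log2 scale. At least 0.75 was reached by 0 of 49 members and by 4.36% of all, and at least 1 by 0 and 2.15%. At 30 min 0 members and 6.39% of all reached 0.5. With 49 members these shares are a description, and no test of them was made.

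**Figure D2:**
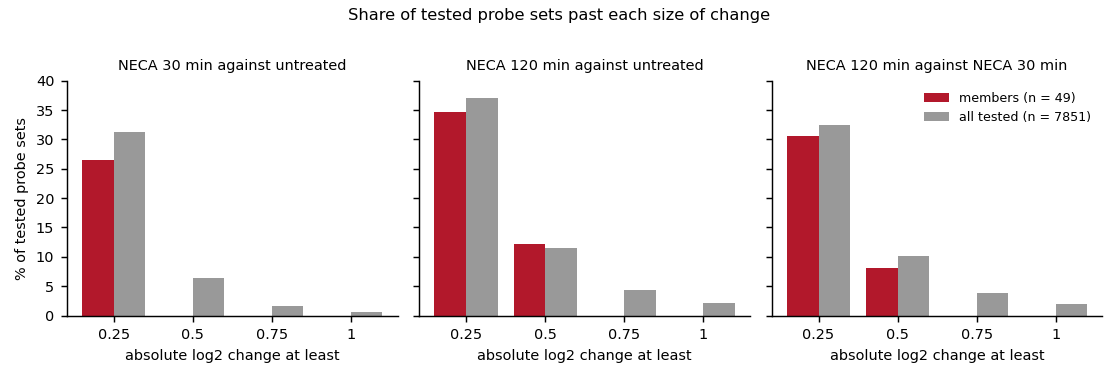
Percent of tested probe sets (y axis) whose absolute log2 change is at least the size on the x axis, for the 49 members (red) and all 7851 tested probe sets (grey), in each comparison. At 0.25 the shares were 26.5 and 31.3% at 30 min and 34.7 and 37% at 120 min; no member reached 0.75 in any comparison.

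Among the G protein alpha subunits, Gnas, which encodes the stimulatory alpha subunit, had 3 probe sets, of which 102082_at was not tested. Gnas 93271_s_at read 2667, 3250 and 2545 in untreated cells, 3034, 2722 and 3389 at 30 min and 2994, 2983 and 3021 at 120 min. The groups overlapped throughout. Its change was 0.11 ± 0.12 (SE, n = 3 per group) at 30 min and 0.10 ± 0.12 at 120 min, with an interval of -0.17 to 0.36 at the later time. Gnas 92672_at, a set of low signal, gave 0.29 ± 0.22 and -0.19 ± 0.22, so the 2 tested sets differed in sign at 120 min, with neither called.

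Gnai2, an inhibitory alpha subunit, had 3 tested probe sets. Gnai2 99597_at, the alpha-subunit set with the smallest unadjusted p of those not called, read 136.4, 114.6 and 114.8 untreated, 115.5, 107.0 and 135.4 at 30 min and 99.4, 86.2 and 110.5 at 120 min. The 120 min arrays lay below all untreated ones, but the change of -0.29 ± 0.14 had an adjusted p of 0.374 in limma and ran from -0.48 to -0.20 over the alternative settings. The other Gnai2 sets differed by -0.12 ± 0.13 (99596_f_at) and -0.13 ± 0.11 (99598_g_at) at that time. Gnai3, a second inhibitory subunit, gave -0.29 ± 0.19 at 30 min and -0.13 ± 0.19 at 120 min. Gnaq, whose product activates phospholipase C rather than adenylyl cyclase, gave -0.29 ± 0.19 and -0.08 ± 0.19. None of the 7 alpha-subunit sets was called at either time.

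The beta and gamma subunits form the dimer that returns to the alpha subunit and also signals by itself. Gnb1 97458_at read 275.0, 284.0 and 254.9 in untreated cells, 221.6, 226.2 and 192.3 at 30 min and 255.8, 223.8 and 302.6 at 120 min. All 30 min arrays lay below all untreated arrays and the 120 min arrays overlapped both. The 30 min change was -0.34 ± 0.14 with an adjusted p of 0.552 in limma. The other tested Gnb1 sets gave -0.10 ± 0.14 (94853_at) and -0.34 ± 0.24 (94854_g_at). Over the 7 beta-subunit sets, of Gnb1, Gnb2, Gnb3, Gnb4 and Gnb5, changes ran from -0.35 to 0.35 at 30 min and from -0.19 to 0.54 at 120 min, with none called.

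Gng2 had the smallest unadjusted p of the gamma subunits. It read 38.0, 30.2 and 44.3 untreated, 32.5, 30.6 and 15.9 at 30 min and 42.2, 37.2 and 44.7 at 120 min. The low value was that of replicate 3 at 30 min, and the untreated and 30 min arrays overlapped. The change was -0.43 ± 0.22 at 30 min (adjusted p 0.59, limma), or -0.19 without that array, and 0.13 ± 0.22 at 120 min. The 6 gamma-subunit sets, of Gng2, Gng3, Gng10, Gng11 and Gng12, ran from -0.43 to 0.09 at 30 min and from -0.45 to 0.13 at 120 min.

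Adcy6, a cyclase inhibited by calcium, stood highest among the adenylyl cyclases at 120 min. Its signal was 186.3, 156.3 and 172.4 untreated, 151.8, 155.0 and 203.3 at 30 min and 273.0, 241.0 and 212.0 at 120 min. Every 120 min array exceeded every other array, whereas the untreated and 30 min arrays overlapped. The change was 0.47 ± 0.15 at 120 min (interval 0.14 to 0.81), which did not pass, with an adjusted p of 0.149 in limma and 0.066 to 0.478 over the alternative settings. The change itself ran from 0.28, with the Gapdh ratio as a covariate, to 0.56. Against 30 min it was 0.49 ± 0.15 with an adjusted p of 0.149. Without replicate 3 of the 30 min group this second difference was 0.62 and was called, with an adjusted p of 0.0439 in limma.

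The other tested cyclases were Adcy3, Adcy4, Adcy7 and Adcy9. At 30 min the 6 cyclase sets, Adcy6 included, ran from -0.11 to 0.24, and at 120 min the lowest was -0.11. Adcy3, a calcium-modulated form known from olfactory neurons, was the least precise, at 0.29 ± 0.38 at 120 min. Its untreated arrays alone spanned 9.52 to 30.8.

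Pde8a, whose product has a higher affinity for cAMP than most phosphodiesterases, had 1 probe set. The gene lies at chr7:81213265-81334535. Its signal was 57.1, 55.1 and 65.2 in untreated cells, 78.8, 65.5 and 77.0 at 30 min and 93.3, 101.3 and 91.4 at 120 min. The 3 groups did not overlap, although the lowest 30 min array lay just above the highest untreated one. Group means were 59.1 ± 5.32 (SD, n = 3), 73.8 ± 7.21 and 95.3 ± 5.30. The change at 120 min was 0.62 ± 0.13 (interval 0.34 to 0.91), with an adjusted p of 0.0218 in limma. At 30 min it was 0.28 ± 0.13 and did not pass, with an adjusted p of 0.577, and from 30 to 120 min it was 0.34 ± 0.13 with an adjusted p of 0.278.

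The Pde8a call was lost, with the direction kept, when untreated replicate 1 or 2 was left out (0.60 and 0.58; adjusted p 0.103 and 0.107 in limma) or 120 min replicate 1, 2 or 3 (0.64, 0.58 and 0.65; adjusted p 0.0511, 0.0923 and 0.0629). It was also lost when the Gapdh ratio was added to the fit, at 0.66 and an adjusted p of 0.0981. That ratio differed between the groups, so its part and that of the group cannot be fully told apart.

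The other phosphodiesterases that act on cAMP did not pass. Pde4b, of the rolipram-sensitive family and inducible by cAMP in several cell types, read 31.2, 40.7 and 32.9 untreated, 27.7, 32.4 and 13.4 at 30 min and 37.2, 24.5 and 26.8 at 120 min. All groups overlapped, and the lowest value was again replicate 3 at 30 min. Its change was -0.45 ± 0.25 at 30 min (adjusted p 0.611, limma), or -0.17 without that array, and -0.20 ± 0.25 at 120 min (adjusted p 0.715). Pde7a, a rolipram-insensitive enzyme, gave -0.30 ± 0.22 and -0.39 ± 0.22. Pde4dip, named for binding a phosphodiesterase and not an enzyme itself, gave -0.12 ± 0.16 and -0.26 ± 0.16.

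Pde1b hydrolyses cAMP and cGMP when calcium and calmodulin are bound, and it was the only tested member of the dual-specificity group. Its 1 probe set belongs to a gene at chr15:103503034-103530056. The signal was 225.3, 266.4 and 235.3 in untreated cells, 229.7, 214.4 and 281.8 at 30 min and 146.4, 141.1 and 179.3 at 120 min. Every 120 min array lay below all 6 others, and the untreated and 30 min arrays overlapped. Group means were 242 ± 21.4 (SD, n = 3), 242 ± 35.4 and 156 ± 20.7.

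The Pde1b change was -0.01 ± 0.15 at 30 min (interval -0.33 to 0.32) and -0.62 ± 0.15 at 120 min (interval -0.94 to -0.29), with an adjusted p of 0.0424 in limma at the later time. Between the NECA groups it was -0.61 ± 0.15 with an adjusted p of 0.0499. Both calls lay close to the threshold: 8 of 18 alternative settings kept the first (adjusted p 0.0186 to 0.201) and 2 of 18 the second (0.0345 to 0.21), always with the same direction. The first was lost when untreated replicate 1, 2 or 3 (-0.67, -0.55 and -0.64), 30 min replicate 1 (-0.62) or 120 min replicate 1 or 2 (-0.58 and -0.55) was left out, and with the Gapdh ratio as a covariate (-0.71). The first was also lost without a filter, without the variance trend and with the replicate block. The second was kept only without 30 min replicate 2 and with the stricter filter.

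Pde6d shares its name with the photoreceptor cGMP phosphodiesterase but encodes a chaperone of prenylated proteins. It read 110.2, 104.6 and 135.8 untreated, 188.7, 123.0 and 185.3 at 30 min and 124.7, 141.7 and 144.0 at 120 min. Replicates 1 and 3 at 30 min were the highest of the 9 arrays, and replicate 2 lay within the untreated range. The 30 min change of 0.46 ± 0.17 had an unadjusted p of 0.0216 and an adjusted p of 0.552 in limma. Pde6a, a catalytic subunit of the rod photoreceptor enzyme, had a low signal, 13.2 to 31.1 over the 9 arrays, and gave -0.50 ± 0.23 at 30 min and -0.23 ± 0.23 at 120 min.

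**Figure D3:**
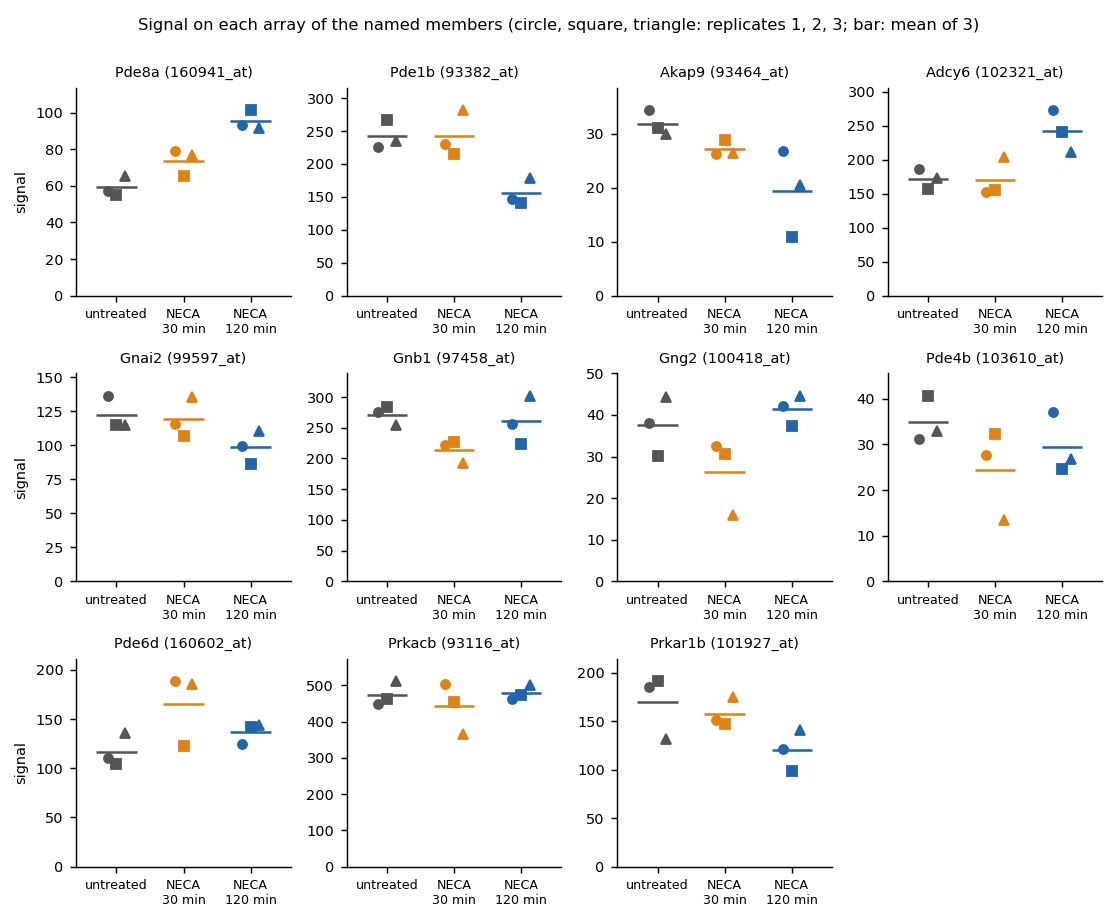
Signal (y axis, linear MAS5 scale from 0) of the named members on each array, by group; circle, square and triangle are replicates 1, 2 and 3 and the bar is their mean. The 120 min arrays of Pde8a (91.4 to 101.3) lie above all others and those of Pde1b (141.1 to 179.3) below all others.

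Both catalytic subunits of PKA, the kinase itself, were tested. Prkacb read 450.1, 462.0 and 512.1 in untreated cells, 504.8, 454.8 and 366.7 at 30 min and 463.1, 474.6 and 500.9 at 120 min. The groups overlapped, with replicate 3 at 30 min again the lowest. Its change was -0.11 ± 0.14 (interval -0.41 to 0.19) at 30 min, or 0.015 without that array, and 0.016 ± 0.14 at 120 min. Prkaca gave 0.10 ± 0.16 and 0.05 ± 0.16. Over both subunits and both times, the limit of the interval farthest from 0 was 0.44 at 30 min and 0.39 at 120 min on the log2 scale.

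The regulatory subunits hold the catalytic subunits inactive until cAMP binds. Prkar1a, which carries the response element printed above, read 739.5, 716.4 and 771.8 untreated, 692.8, 775.1 and 605.2 at 30 min and 709.8, 861.3 and 710.8 at 120 min. The groups overlapped, and the change was -0.11 ± 0.13 at 30 min and 0.03 ± 0.13 at 120 min (interval -0.26 to 0.31, adjusted p 0.938, limma).

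Prkar1b, a regulatory subunit best known from the brain, read 184.6, 191.3 and 131.9 untreated, 151.1, 146.8 and 174.9 at 30 min and 121.0, 98.7 and 140.8 at 120 min on 101927_at. The 120 min arrays were low but overlapped the untreated ones. The 120 min change was -0.46 ± 0.17 (adjusted p 0.217, limma), and the second Prkar1b set, 94944_at, gave -0.27 ± 0.19. Prkar2a gave -0.12 ± 0.21 at 30 min and 0.09 ± 0.21 at 120 min.

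Changes of the anchoring proteins ran from -0.20 to 0.21 at 30 min and from -0.58 to 0.56 at 120 min over 10 probe sets, with none called. Akap9, a scaffold of the centrosome and Golgi, read 34.4, 31.1 and 29.9 untreated, 26.2, 28.8 and 26.4 at 30 min and 26.8, 10.9 and 20.6 at 120 min. Both treated groups lay below all untreated arrays. The 120 min change was -0.58 ± 0.23 (interval -1.08 to -0.09) with an adjusted p of 0.234 in limma, and was -0.34 without 120 min replicate 2, the lowest array.

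A pair of anchoring proteins is named after their values were seen. Akap12, a membrane-associated scaffold of PKA and protein kinase C, read 119.2, 121.8 and 92.9 untreated, 119.5, 130.4 and 69.8 at 30 min and 150.1, 160.5 and 169.9 at 120 min. Akap2 read 18.4, 31.4 and 29.7, then 29.3, 34.5 and 14.7, then 44.6, 36.2 and 46.0. For both genes every 120 min array exceeded all 6 others. The 120 min changes were 0.50 ± 0.20 for Akap12 (adjusted p 0.258, limma) and 0.56 ± 0.25 for Akap2 (adjusted p 0.32). Akap1, a mitochondrial anchor, gave changes between -0.0032 and 0.035 at 120 min on 3 sets. Akap8, a nuclear anchor, had 3 tested sets of its 5, whose 120 min changes were -0.0025, 0.16 and 0.49, none of them called.

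Genes of the pathway outside the member list were taken from 4 lists, drawn up with earlier results of these data known. Of 36 other G protein subunits and regulators, 16 were tested by 25 probe sets, of which 1 was called higher at 30 min and 3 higher and 1 lower at 120 min. At an unadjusted p under 0.05 in limma 6 of the 25 were higher and 1 lower at 30 min. At 120 min 4 were higher and 1 lower at that threshold. Of 29 receptors that act through cAMP, 8 were tested, with 0 called and 1 lower at an unadjusted p under 0.05 at 30 min, and 1 called lower at 120 min. At 120 min 3 of the 8 were lower and 0 higher at an unadjusted p under 0.05. Of 27 other cAMP effectors and PKA modulators, 8 were tested by 9 probe sets, and limma called 0 at either time, with 1 lower at an unadjusted p under 0.05 at each. These counts stand beside the shares of all tested probe sets given above, 3.87% higher and 4.7% lower at 30 min and 6.42% and 8.93% at 120 min for an unadjusted p, and 0.357%, 0%, 1.83% and 1.54% in the same order for calls. Of 15 genes of the CREB family and its coactivators, 6 were tested by 7 probe sets, with 0 called and 1 higher at an unadjusted p under 0.05 at 30 min, and 2 called higher at 120 min, both of them Crem. At 120 min 2 of the 7 were higher and 1 lower at an unadjusted p under 0.05. Between the NECA groups the lists held 3 probe sets called higher, of Rgs2 and Crem, and 3 called lower, of Rgs3, Ptger4 and Atf4. At 30 min the median changes of the 4 lists, in this order, were -0.01, -0.17, -0.03 and 0.03, and at 120 min 0.03, -0.30, -0.04 and 0.03.

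Rgs2, which speeds GTP hydrolysis on Gq and restrains some adenylyl cyclases, read 2.81, 4.37 and 8.01 untreated, 26.7, 29.1 and 29.9 at 30 min and 80.0, 104.9 and 83.3 at 120 min. The groups were fully separate. It rose by 1.51 ± 0.20 at 30 min (adjusted p 0.00417, limma) and 2.92 ± 0.20 at 120 min (adjusted p 2.63e-06). The untreated signals, and no others, lay below the filter of 20.5, so this probe set was tested through the groups in which it is high and the size of its change depends on the offset. Over the alternative settings it ran from 0.95 to 2.38 at 30 min and from 2.10 to 3.98 at 120 min, with the extremes at the larger and the smaller offset. Its 30 min call was lost when only the 2 compared groups were fitted and with the Gapdh ratio as a covariate, where the adjusted p reached 0.141.

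Rgs3, another regulator of Gi and Gq, read 219.1, 300.2 and 231.4 untreated, 224.5, 135.8 and 188.7 at 30 min and 91.9, 106.3 and 102.2 at 120 min. The 120 min arrays lay below all others, and the gene fell by 1.25 ± 0.18 on the log2 scale (adjusted p 0.00202, limma), a call kept in all 18 alternative settings. Gna11, an alpha subunit of the Gq class, had 2 tested sets that were both called higher at 120 min, at 0.57 ± 0.14 (102196_at, adjusted p 0.0456) and 1.35 ± 0.33 (103411_at, adjusted p 0.0484). Those calls held in 7 and 8 of 18 alternative settings and were lost for both sets without untreated replicate 1, 2 or 3, 30 min replicate 1 or 120 min replicate 2 or 3, and for 102196_at also without 120 min replicate 1; without those arrays the changes ran from 0.53 to 0.60 (102196_at) and from 1.10 to 1.51 (103411_at). Gna11 102196_at read 107.9, 105.3 and 113.8 untreated, 172.2, 124.5 and 158.4 at 30 min and 160.0, 162.3 and 176.1 at 120 min, so both treated groups lay above all untreated arrays.

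Ptger4, the EP4 prostaglandin E receptor that couples to Gs, read 36.1, 24.5 and 33.9 untreated, 21.2, 27.3 and 30.8 at 30 min and 2.86, 11.9 and 9.98 at 120 min. All 120 min arrays lay below all others. It fell by 1.32 ± 0.26 on the log2 scale at 120 min (adjusted p 0.0161, limma). The call was lost without untreated replicate 1 or 3 (-1.24 and -1.27; adjusted p 0.0837 and 0.0571) and with the Gapdh ratio as a covariate (adjusted p 0.0944). The 120 min signals all lay below the filter of 20.5, so the size depends on the offset, from -1.97 with the smaller to -0.86 with the larger.

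Crem, a CREB relative that yields both activators and the cAMP-induced early repressor, read 27.3, 23.8 and 28.6 untreated, 26.4, 34.2 and 25.5 at 30 min and 150.0, 171.7 and 150.0 at 120 min on 100533_s_at. The 120 min arrays stood far above the rest, and the untreated and 30 min arrays overlapped. It rose by 2.26 ± 0.15 at 120 min (adjusted p 1.9e-06, limma), and the second Crem set, 160526_s_at, by 2.46 ± 0.20 (adjusted p 1.42e-05). Both calls held in all 18 alternative settings. On 160526_s_at all untreated signals and 30 min replicates 1 and 3 lay below the filter of 20.5, so this set was tested through the 120 min arrays. Its change ran from 1.86 with the larger offset to 3.08 with the smaller. Atf4, a CREB-related stress factor, read 1107, 1309 and 1236, then 1289, 1176 and 1350, then 896, 891 and 928. It was called lower only between the NECA groups, at -0.48 ± 0.11 (adjusted p 0.0372, limma). That call was kept in 5 of 18 alternative settings. Of the left-out arrays, it held only without 30 min replicate 2, with changes of -0.50 to -0.44 without the others. At 120 min against untreated cells the change was of similar size but not called, -0.42 ± 0.11 (adjusted p 0.069, limma). All 120 min arrays lay below all others.

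**Figure D4:**
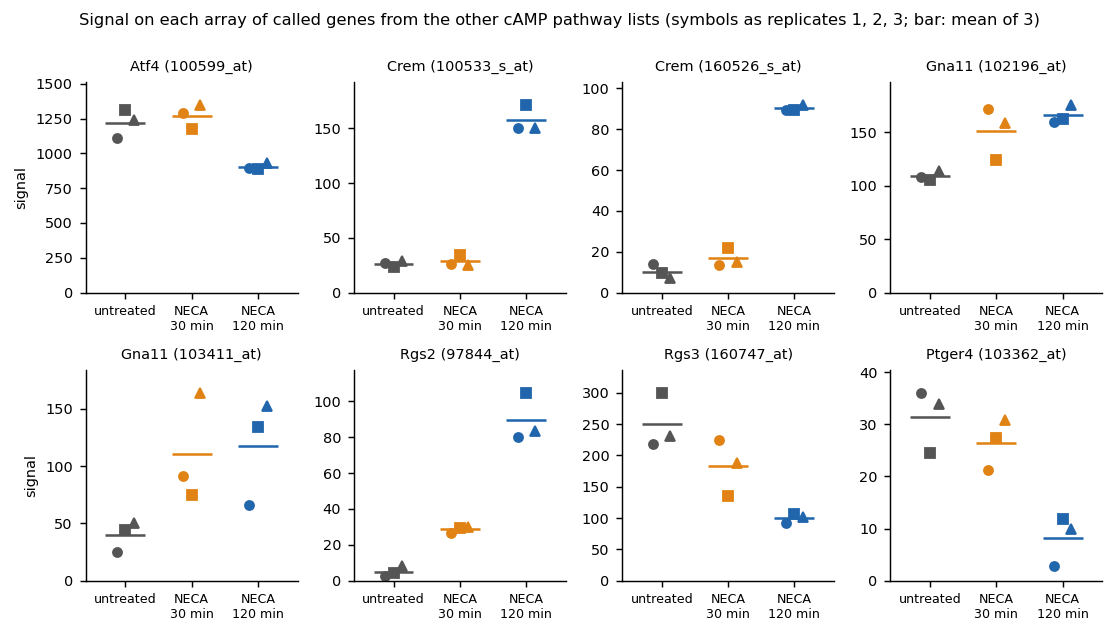
Signal (y axis, linear MAS5 scale from 0) of the called genes of the 4 other pathway lists on each array, by group, with symbols and bars as for the members. For Crem the 120 min arrays stand apart from the other 6, and for Rgs2 all 3 groups are separate.

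The calls for the Pde8a and Pde1b pair at 120 min depended on single arrays and the Gapdh covariate, while their sizes moved little. For Pde1b the call also depended on the filter, the variance trend and the replicate block. Over the 18 alternative settings the Pde8a change ran from 0.54 to 0.70, passing in 12, and that of Pde1b from -0.72 to -0.55, passing in 8.

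**Figure D5:**
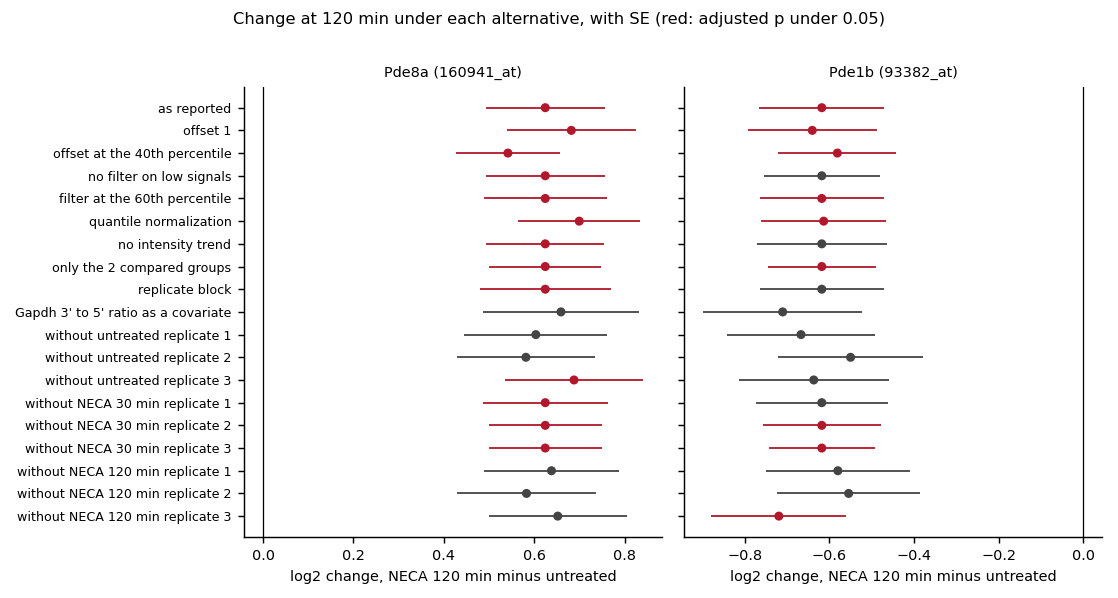
Change of Pde8a (left) and Pde1b (right) at 120 min against untreated cells on the log2 scale, with SE, as reported and under each of the 18 alternative settings; red marks an adjusted p under 0.05. Every point keeps its side of 0, and 12 alternatives for Pde8a and 8 for Pde1b are red.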

How the data were processed

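RNA of 9 TtT/GF samples was hybridised to 1 array each. The authors deposited 1 intensity per probe set and array, made with MAS5 per the submitters' processing notes (its version is not given in the sources used here); detection calls were not used here. MAS5 subtracts background, combines probes and scales each array; the deposited trimmed means were already equal, so no further scaling was applied. Of 12488 probe sets, 66 controls were left out. Genes were named from the platform annotation, using only probe sets with 1 symbol.

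limma 3.58.1 in R 4.3.3 fitted log2(signal + 7.93), the offset being the 25th percentile of all signals, over all 9 arrays with an intensity trend (lmFit, eBayes). Tested probe sets exceeded the 40th percentile, 20.5, on at least 3 arrays. The Benjamini-Hochberg adjustment ran over the 7851 probe sets of each comparison. The procedure was also run on simulated data with independent noise and no array effects, which does not test the calls reported here. Members and lists were chosen with earlier results of these data known. Signals of every array are given for called members and, per role, the tested member with the smallest unadjusted p against untreated cells among those not called, and for called list genes. The sample titles only number the replicates, which were taken as separate cultures of 1 line. The p-values weigh each change against the spread between arrays of a group, moderated by limma over all tested probe sets. Alternatives were another offset, filter, normalization, variance trend or set of samples, a replicate block, a Gapdh ratio covariate and leaving out each array.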

Additional observations from a re-analysis of the deposited data

Results flagged for a closer look

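Pde1b stood out because its change differed between the times. The change against untreated cells was -0.01 ± 0.15 at 30 min and -0.62 ± 0.15 at 120 min, and the direct test of 120 min against 30 min gave -0.61 ± 0.15 (adjusted p 0.0499, limma). That call held in 2 of 18 alternative settings, with adjusted p from 0.0345 to 0.21. All 3 arrays at 120 min lay below all 3 at 30 min.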

How the results depend on the processing

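The count of members called at 30 min stayed at 0 in both directions in every alternative run. At 120 min the members called higher went from 1 to 0 with the Gapdh covariate and ranged from 0 to 1 when single arrays were left out. Those called lower went from 1 to 0 without a filter, without the variance trend, with the replicate block and with the Gapdh covariate, and ranged from 0 to 1 over left-out arrays. From 30 to 120 min the members called lower went from 1 to 0 with both other offsets, without a filter, with quantile normalization, without the trend, with only the 2 groups, with the replicate block and with the Gapdh covariate, and both directions ranged from 0 to 1 over left-out arrays. The cause was not tested.

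In the 4 other pathway lists, 1 probe set was called higher at 30 min, against 0 with only the 2 groups or the Gapdh covariate and 2 with the replicate block. At 120 min 5 were called higher, against 3 without a filter, without the trend or with the Gapdh covariate, and 3 to 5 over left-out arrays. The 2 called lower became 1 with the stricter filter or the Gapdh covariate, and ranged from 1 to 3. From 30 to 120 min the 3 called lower became 0 without a filter, with only the 2 groups or with the replicate block, 1 without the trend or with the Gapdh covariate, and 0 to 2 over left-out arrays. The cause was not tested.

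Changes of single genes were recomputed only for called members and list genes and for the uncalled member chosen in each role. Among these the sign switched for Pde1b at 30 min, -0.0080 as reported and -0.12 to 0.072 over left-out arrays (above 0 without untreated replicate 2 or 30 min replicate 1 or 2), and for Prkacb at 30 min, -0.11 as reported, 0.13 with the Gapdh covariate and -0.21 to 0.015 over left-out arrays (above 0 without 30 min replicate 3). Same-numbered arrays did not deviate together (correlations -0.172 to 0.23), so the numbers were not taken to pair the cultures. With the replicate block Pde8a stayed called at 120 min (0.62, adjusted p 0.0486, limma) and Pde1b did not (-0.62, adjusted p 0.052). Over all probe sets the count called lower at 30 min, 0 as reported, was 46 without 30 min replicate 2, and the count called higher, 28, was 4 with the Gapdh covariate and 15 without untreated replicate 2. At 120 min the Gapdh covariate took 144 higher and 121 lower to 87 and 64. Leaving out an array took these to as few as 88 and 60. From 30 to 120 min 106 higher ranged from 59 to 178.

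With 3 arrays a group, precision was limited: at 120 min 11.5% of tested probe sets differed by at least 0.5 on the log2 scale, while 1.83% were called higher and 1.54% lower. Adcy3, Akap8 (95001_at) and Gnb3 had the widest intervals among the tested members. Most members have 1 probe set.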
